A study of Mus musculus with 24 samples.

Results

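Nod1, Nod2, Nlrp3, Nlrc4, Pycard, Casp1, Casp4 and Gsdmd encode cytosolic sensors of bacteria and cell damage and proteins that carry out the inflammatory death programme of some of these sensors. They were chosen by name, with earlier results of these data known. Counts of them beside shares of all genes are therefore a description and no test of the set. Each has 1 probe set that the array platform assigns to its symbol alone, and all 8 were measured, among 19938 genes in all. Their levels were followed in 24 arrays of total RNA from mouse cells, in 6 groups of 4. The 2 epithelial lines derive from the upper reproductive tract, C57epi.1 from the strain C57BL/6 and Bm12.4 from B6(C)-H2-Ab1bm12/KhEgJ. Macrophages came from C57BL/6 femoral bone marrow cultured in GM-CSF. Each kind of cell was either left in RPMI media or given an inflammatory supernatant. The supernatant was RPMI medium conditioned by a CD4 T cell clone specific for Chlamydia together with an infected epithelial monolayer, used at 33% (v/v) and brought to 4 ng/ml interferon-gamma. The labels name no infection of the arrayed cells. Each line stands for 1 strain, so line and strain cannot be told apart.

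Nod1 and Nod2 are cytosolic receptors for fragments of bacterial peptidoglycan and signal to NF-kappaB. Nlrp3 and Nlrc4 are sensors that assemble inflammasomes, large complexes that bring caspase-1 (Casp1) together so that it activates itself. The adaptor Asc (encoded by Pycard) links sensors such as Nlrp3 to caspase-1. Caspase-11, the product of mouse Casp4, binds bacterial lipopolysaccharide in the cytosol. Caspase-1 and caspase-11 cut gasdermin D (Gsdmd), whose released part forms pores in the plasma membrane, and caspase-1 also matures interleukin-1 beta and interleukin-18. Chlamydia grows inside epithelial cells of the genital tract, and Nod1 is known as a sensor of this bacterium.

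Values are on the log2 scale, where 1 unit is a 2-fold difference, and no detection p-value was used, so low levels and background cannot be separated. A gene was called changed at an adjusted p under 0.05 in limma (Benjamini-Hochberg over all 19938 genes). Array medians lay between 5.0 and 5.19, and arrays of a group correlated across genes at 0.967 to 0.9975. The labels do not say whether the arrays of a group came from separate cultures. The p-values therefore reflect the spread among these arrays alone, which may be technical. Macrophage markers averaged 4.20 to 4.69 per array in the lines and 11.39 to 11.59 in macrophages, with Ptprc, Csf1r and Adgre1 each under 4.7 in every group of the lines and above 10.2 in macrophages. Of the epithelial markers, Epcam lay between 3.67 and 3.79 in all 6 groups, at the same low level in the lines as in macrophages. Krt8 was 9.25 ± 0.40 (SD, n = 4) in untreated C57epi.1 but 5.67 ± 0.21 in untreated Bm12.4, against 5.38 ± 0.41 in untreated macrophages. Krt19, named after its values were seen, was 11.31 ± 0.42 and 11.77 ± 0.40 in the untreated lines (C57epi.1, then Bm12.4) and 4.32 ± 0.32 in untreated macrophages. Cdh1, also named afterwards, went the other way, at 4.34 ± 0.13, 4.50 ± 0.24 and 6.65 ± 0.89 in the same order. The 10 epithelial markers averaged 5.25 to 5.79 per array in the lines and 4.64 to 4.88 in macrophages. In the line groups, 5 to 8 of these 10 had means under 5. In media, replicates 1 and 2 of each line stood apart from replicates 3 and 4, so called treatment effects of the 8 genes are given below within each pair of replicates too. For other genes named below, such values are given in some cases only. Cell cycle markers moved with that split, averaging 10.49 in replicates 1 and 2 and 9.43 in replicates 3 and 4 of untreated C57epi.1, and 10.19 and 7.60 in untreated Bm12.4.

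The supernatant raised the Nod1 receptor, both caspases and gasdermin D in all 3 kinds of cell. Nod2, Nlrp3 and Pycard rose in macrophages, and in neither line did they pass the test. Nlrc4 was not called in any of the 3. In bulk RNA, more RNA per cell and more cells that hold it cannot be told apart. Of the 8 genes, 4 rose in C57epi.1, where 8.85% of all genes did, 4 in Bm12.4, where 4.54% did, and 7 in macrophages, where 6.13% did. In each of these 15 rises the 4 treated arrays lay above the 4 media arrays, which held for 9.2%, 5.18% and 9.33% of all genes. None of the 8 was called lower by limma in any kind of cell, against 10.4%, 2.7% and 6.31% of all genes, and none had an unadjusted p under 0.05 in that direction. The median difference of the 8 was 0.54, 0.61 and 0.95 in the same order, against −0.05, −0.05 and −0.02 over all genes.

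**Figure D1:**
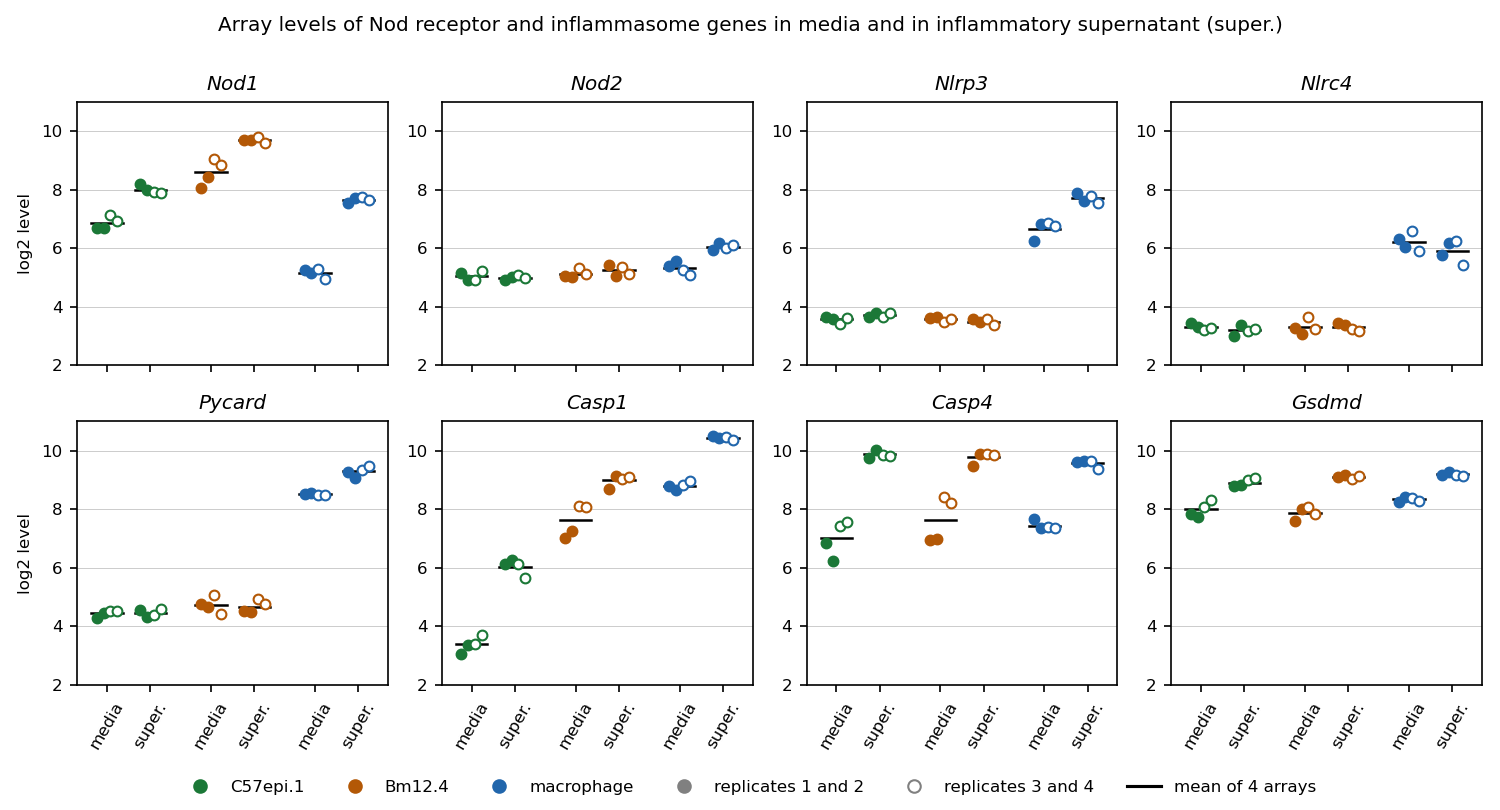
Log2 level of each gene (vertical axis) in each of the 24 arrays, by cell kind and treatment, with a bar at the mean of 4 arrays; filled points are replicates 1 and 2 and open points replicates 3 and 4. All 12 treated arrays of Casp4 and of Gsdmd lie above the 12 media arrays, while Nlrp3, Nlrc4 and Pycard stay low in both lines.

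Nod1 (probe set 10544891) was the only gene of the 8 that was clearly higher in the lines than in macrophages. In media its level was 6.71, 6.71, 7.15 and 6.95 in C57epi.1, 8.07, 8.45, 9.06 and 8.85 in Bm12.4, and 5.27, 5.17, 5.29 and 4.95 in macrophages. In supernatant the arrays read 8.20, 8.01, 7.94 and 7.88 in C57epi.1, 9.70, 9.71, 9.80 and 9.62 in Bm12.4, and 7.56, 7.71, 7.76 and 7.65 in macrophages. The order ran from treated Bm12.4 down through untreated Bm12.4, treated C57epi.1, treated macrophages and untreated C57epi.1 to untreated macrophages, and of the neighbours in this order only untreated Bm12.4 and treated C57epi.1 overlapped. Nod1 rose by 1.13 (SE 0.151, adjusted p = 8.5e-06) in C57epi.1 and by 1.10 (adjusted p = 1.94e-05) in Bm12.4. It rose by 2.50, or 5.66-fold, in macrophages (adjusted p = 2.76e-11). The rise in macrophages was larger than that in C57epi.1 by 1.37 (the difference of the 2 effects was −1.37, SE 0.213, adjusted p = 0.00014) and larger than that in Bm12.4 (−1.40, adjusted p = 0.00013). Within replicates 1 and 2 and within replicates 3 and 4, the rise was 1.39 and 0.86 in C57epi.1, 1.45 and 0.75 in Bm12.4, and 2.42 and 2.58 in macrophages, and limma called it in each.

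Untreated Bm12.4 held 10.8-fold more Nod1 than untreated macrophages (3.44, adjusted p = 4.04e-15), and untreated C57epi.1 held 3.27-fold more (1.71, adjusted p = 1.34e-09). After treatment Bm12.4 was still 4.11-fold above macrophages (2.04, adjusted p = 6.4e-11). Treated C57epi.1 lay 0.34 above treated macrophages, with arrays that did not overlap but an adjusted p of 0.0726 (95% interval 0.02 to 0.65). That last difference was called in 5 of the other ways of processing, among them the fit on only the groups compared (adjusted p = 0.00763). Between the lines, C57epi.1 lay below Bm12.4 by a difference of −1.73 in media (adjusted p = 4.85e-09) and −1.70 in supernatant (adjusted p = 5.41e-09), or 3.31-fold and 3.25-fold.

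Nod2 (probe set 10573790), the receptor for muramyl dipeptide, stayed in a narrow range in the lines. All 16 of their arrays lay between 4.91 and 5.44. That is near the array medians of 5.0 to 5.19, so the line levels may be background. In macrophages the media arrays read 5.41, 5.57, 5.26 and 5.10 and the treated arrays 5.93, 6.18, 6.01 and 6.11. The treated macrophages were thus above every other array, while untreated macrophages overlapped both lines. Nod2 rose by 0.72 (1.65-fold, SE 0.109, adjusted p = 4.03e-05) in macrophages. Within replicates 1 and 2 and within replicates 3 and 4 it rose by 0.57 and 0.88. The changes of −0.05 (95% interval −0.28 to 0.17) in C57epi.1 and 0.11 (−0.11 to 0.34) in Bm12.4 were not called. The macrophage effect was larger than that of C57epi.1 (difference −0.78, adjusted p = 0.0017) and of Bm12.4 (−0.61, adjusted p = 0.0177). Within replicates 1 and 2 those differences were −0.64 and −0.34 and were not called (adjusted p = 0.105 and 0.414). In supernatant Nod2 was lower than in macrophages in C57epi.1 (−1.05, adjusted p = 1.94e-08) and in Bm12.4 (−0.81, adjusted p = 1.18e-06). In media the differences were −0.28 (adjusted p = 0.0424) and −0.20 (adjusted p = 0.151). The call in C57epi.1 was lost without replicate 2 or 3 of that group or without replicate 1 or 2 of untreated macrophages (adjusted p = 0.119, 0.131, 0.1 and 0.173), and with the replicate number as a block (adjusted p = 0.0579). Without replicate 4 of untreated macrophages, the difference in Bm12.4 was called (−0.28, adjusted p = 0.0495).

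Nlrp3 (probe set 10376513), a sensor set off by potassium loss and membrane damage, was low in both lines and high in macrophages. Its 16 line arrays lay between 3.37 and 3.80. The macrophage arrays read 6.24, 6.85, 6.86 and 6.75 in media and 7.91, 7.61, 7.78 and 7.56 in supernatant, with no overlap between the 2. Nlrp3 rose by 1.04 (2.06-fold, SE 0.111, adjusted p = 3.3e-07) in macrophages, and by 1.22 and 0.87 within replicates 1 and 2 and within replicates 3 and 4. The changes were 0.15 (95% interval −0.08 to 0.39) in C57epi.1 and −0.08 (−0.31 to 0.15) in Bm12.4, and neither was called. Both differed from the macrophage effect (−0.88, adjusted p = 0.000578, and −1.12, adjusted p = 4.7e-05). In media Nlrp3 was 8.6-fold lower in C57epi.1 and 8.53-fold lower in Bm12.4 than in macrophages, and in supernatant 15.9-fold and 18.5-fold lower. The line levels may be background, so these folds may understate the difference.

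Nlrc4 (probe set 10452879), which forms an inflammasome when Naip proteins bind bacterial flagellin or secretion needle parts, showed the same split between cells but no rise. Its line arrays lay between 3.02 and 3.66. The macrophage arrays read 6.31, 6.05, 6.58 and 5.92 in media and 5.76, 6.17, 6.24 and 5.45 in supernatant. The treated and untreated macrophages overlapped, and the difference of −0.31 (95% interval −0.64 to 0.02, adjusted p = 0.269) was not called, nor were those of −0.10 for C57epi.1 and 0.00 for Bm12.4. Untreated C57epi.1 and Bm12.4 lay 7.52-fold and 7.46-fold below untreated macrophages. After treatment the gaps were 6.51-fold and 6.01-fold. Here too the line levels may be background.

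Pycard (probe set 10568355), the adaptor that links sensors to caspase-1, was high in macrophages and low in both lines. Its macrophage arrays read 8.52, 8.56, 8.49 and 8.48 in media and 9.28, 9.07, 9.34 and 9.49 in supernatant, a rise of 0.78 (1.72-fold, SE 0.119, adjusted p = 4.44e-05). Taken within each pair of replicates the rise was 0.64 (1 and 2) and 0.93 (3 and 4). In the lines all 16 arrays lay between 4.29 and 5.05, and the changes of 0.01 (95% interval −0.23 to 0.26) and −0.05 (−0.30 to 0.20) were not called. The macrophage effect was larger than that of C57epi.1 (difference −0.77, adjusted p = 0.00404) and of Bm12.4 (−0.83, adjusted p = 0.00272). In the fit on replicates 1 and 2 alone, the first of these was −0.59 and not called (adjusted p = 0.0771). Pycard was 16.9-fold lower in C57epi.1 and 13.8-fold lower in Bm12.4 than in macrophages in media, and 28.7-fold and 24.6-fold lower in supernatant, again against line levels that may be background. Untreated C57epi.1 lay −0.29 from Bm12.4 (adjusted p = 0.088), a difference that was called without replicate 4 of untreated Bm12.4 (−0.39, adjusted p = 0.0206).

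Casp1 (probe set 10582985) parted the lines more than any other of the 8. In media its level was 3.06, 3.36, 3.39 and 3.69 in C57epi.1, 7.01, 7.26, 8.10 and 8.09 in Bm12.4, and 8.79, 8.64, 8.82 and 8.95 in macrophages. In supernatant it was 6.12, 6.25, 6.11 and 5.63 in C57epi.1, 8.70, 9.13, 9.03 and 9.09 in Bm12.4, and 10.50, 10.44, 10.47 and 10.35 in macrophages. Treated C57epi.1 thus stayed below untreated Bm12.4, and treated Bm12.4 overlapped untreated macrophages. Casp1 rose by 2.65 (6.29-fold, SE 0.195, adjusted p = 8.27e-10) in C57epi.1, by 1.37 (2.59-fold, adjusted p = 3.38e-05) in Bm12.4 and by 1.64 (3.12-fold, adjusted p = 1.65e-06) in macrophages. Within replicates 1 and 2 and within replicates 3 and 4 the rise was 2.98 and 2.33 in C57epi.1, 1.78 and 0.96 in Bm12.4, and 1.76 and 1.53 in macrophages, and limma called it in each.

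The larger rise of Casp1 in C57epi.1 was called against Bm12.4 (difference 1.28, SE 0.276, adjusted p = 0.00904) and against macrophages (1.01, adjusted p = 0.0205). In the fit on only the groups compared the first of these had an adjusted p of 0.0539. The level in C57epi.1 nevertheless stayed lowest. It lay 43-fold below macrophages and 18.9-fold below Bm12.4 in media, and 21.3-fold and 7.78-fold below them in supernatant. Bm12.4 was 2.27-fold below macrophages in media (−1.18, adjusted p = 2.13e-05) and 2.74-fold below in supernatant (−1.45, adjusted p = 1.23e-06). Untreated C57epi.1 read between 3.06 and 3.69, so folds against that group rest on a level that may be background.

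Casp4 (probe set 10582997) had the largest rise of the 8 in both lines, and its 12 treated arrays spanned only 9.38 to 10.03. In media the arrays read 6.83, 6.21, 7.44 and 7.55 in C57epi.1, 6.95, 6.99, 8.41 and 8.22 in Bm12.4, and 7.66, 7.34, 7.38 and 7.37 in macrophages. In supernatant they read 9.76, 10.03, 9.86 and 9.82 in C57epi.1, 9.46, 9.87, 9.89 and 9.86 in Bm12.4, and 9.61, 9.65, 9.65 and 9.38 in macrophages. All 12 treated arrays lay above all 12 media arrays. Treated C57epi.1 lay 0.29 above treated macrophages, with arrays that did not overlap but an adjusted p of 0.431. That difference was called in 3 of the other ways of processing, among them the fit on only the groups compared (adjusted p = 0.0191). Treated Bm12.4 lay 0.20 above treated macrophages (adjusted p = 0.628), with a call in replicates 3 and 4 alone (0.36, adjusted p = 0.0244). Casp4 rose by 2.86 (7.26-fold, SE 0.279, adjusted p = 8.85e-08) in C57epi.1, by 2.13 (4.37-fold, adjusted p = 1.07e-05) in Bm12.4 and by 2.13 (4.39-fold, adjusted p = 5.99e-06) in macrophages. The effects were not called different from each other. C57epi.1 differed from macrophages by 0.72 (95% interval −0.09 to 1.54) and from Bm12.4 by 0.73 (−0.09 to 1.55), and Bm12.4 from macrophages by −0.01 (−0.83 to 0.81). The first 2 of these intervals hold a 2-fold difference in response. Within pairs of replicates some of these differences were called: C57epi.1 against macrophages in replicates 1 and 2 (1.25, adjusted p = 0.0195), and in replicates 3 and 4 C57epi.1 against Bm12.4 (0.78, adjusted p = 0.00803) and Bm12.4 against macrophages (−0.58, adjusted p = 0.0475).

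The untreated lines were split in Casp4. Replicates 1 and 2 lay 0.98 below replicates 3 and 4 in C57epi.1 and 1.35 below them in Bm12.4, along the split of the cell cycle markers given above. The part of growth state in it was not tested. The rise within replicates 1 and 2 and within replicates 3 and 4 was 3.38 and 2.34 in C57epi.1, 2.70 and 1.56 in Bm12.4, and 2.13 and 2.14 in macrophages, and each was called. Untreated Bm12.4 lay 0.21 above macrophages (adjusted p = 0.62), but −0.53 from them in replicates 1 and 2 (adjusted p = 0.0494) and 0.94 above them in replicates 3 and 4 (adjusted p = 1.53e-05). For untreated C57epi.1 the difference was −0.43 overall (adjusted p = 0.241), −0.98 in replicates 1 and 2 (adjusted p = 0.00122) and 0.12 in replicates 3 and 4 (adjusted p = 0.476). C57epi.1 and Bm12.4 in media differed by −0.64 (adjusted p = 0.112). With same-numbered arrays of these groups as blocks, in a fit on them alone, that became −0.63 (adjusted p = 0.0143). It was also called without replicate 1 or 2 of untreated Bm12.4 (adjusted p = 0.0236 and 0.0278) and without replicate 4 of untreated C57epi.1 (adjusted p = 0.0466).

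Casp1 and Casp4 lie on chromosome 9 and rose together in all 3 kinds of cell, while Pycard did so in macrophages alone, so the bases before these starts are shown. Each stretch is the 250 bases before the first listed start of the gene in RefSeq's mouse assembly GRCm38.p6, read 5′ to 3′ on the strand of the gene. The Casp1 window is chr9:5298267-5298516 (plus strand), the Casp4 window chr9:5308599-5308848 (plus strand) and the Pycard window chr7:127993868-127994117 (minus strand). Capitals mark letters that match the NF-kappaB pattern (GGG, any 5 bases, CC) on either strand.
Casp1: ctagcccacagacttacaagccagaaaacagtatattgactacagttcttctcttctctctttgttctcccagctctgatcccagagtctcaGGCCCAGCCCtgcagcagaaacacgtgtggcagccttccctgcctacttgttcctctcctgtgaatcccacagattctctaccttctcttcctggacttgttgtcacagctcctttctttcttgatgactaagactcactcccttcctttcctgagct
Casp4: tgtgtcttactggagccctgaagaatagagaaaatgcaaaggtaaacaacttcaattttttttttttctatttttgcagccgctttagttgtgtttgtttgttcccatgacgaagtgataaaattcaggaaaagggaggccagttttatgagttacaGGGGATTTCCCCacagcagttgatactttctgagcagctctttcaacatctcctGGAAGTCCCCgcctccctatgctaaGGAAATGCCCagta
Pycard: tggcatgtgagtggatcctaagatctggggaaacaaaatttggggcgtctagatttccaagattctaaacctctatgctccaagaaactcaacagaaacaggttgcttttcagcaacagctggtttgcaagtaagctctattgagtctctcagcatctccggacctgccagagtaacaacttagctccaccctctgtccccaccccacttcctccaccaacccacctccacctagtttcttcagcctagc

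The Casp4 window held 5 matches to that pattern. Of these, 3 overlap each other, starting −93, −92 and −91 bases from the start, and the others begin at −39 and −14. Of 32851 windows of this length in the table, 45.8% held at least 1 match and 2.22% held 5 or more. The Casp1 window held 1 match, at −158, and the Pycard window held 0. Nod1, Nod2 and Nlrp3 had 1 match each in 1 of their listed windows, and Nlrc4 had none. The interferon-gamma activated pattern TTCNNNGAA, found in 7.02% of windows, occurred in 1 of the 10 windows of these genes, in a Nod1 window at −193. The interferon-stimulated core (GAAA, any 2 bases, GAAA), found in 2.98% of windows, was in 0 of the 10. Windows were listed for 7 of the 8 genes, all but Gsdmd. A match describes letters and does not show that a factor binds, and a window without a match says nothing on other sequence.

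Gsdmd (probe set 10424731), the pore protein cut by caspase-1 and caspase-11, lay between 7.61 and 9.27 in all 24 arrays. In media it read 7.85, 7.72, 8.08 and 8.31 in C57epi.1, 7.61, 8.0, 8.08 and 7.83 in Bm12.4, and 8.26, 8.43, 8.39 and 8.27 in macrophages. In supernatant it read 8.79, 8.81, 8.98 and 9.06 in C57epi.1, 9.10, 9.18, 9.03 and 9.12 in Bm12.4, and 9.18, 9.27, 9.17 and 9.15 in macrophages. Every treated array lay above every media array. Gsdmd rose by 0.92 (1.89-fold, SE 0.11, adjusted p = 1.91e-06) in C57epi.1, by 1.23 (2.34-fold, adjusted p = 2.74e-08) in Bm12.4 and by 0.85 (1.81-fold, adjusted p = 5e-06) in macrophages. The effects did not pass the test of a difference, with Bm12.4 against macrophages at 0.37 (95% interval 0.05 to 0.70, adjusted p = 0.215). Within replicates 1 and 2 and within replicates 3 and 4 the rise was 1.02 and 0.83, 1.33 and 1.12, and 0.88 and 0.83 in that order of cells.

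Both untreated lines held slightly less Gsdmd than macrophages, at −0.35 (adjusted p = 0.0123) in C57epi.1 and −0.46 (adjusted p = 0.00144) in Bm12.4. After treatment the differences were −0.28 (adjusted p = 0.0391) and −0.09 (adjusted p = 0.594). The calls in C57epi.1 were fragile. That in media was lost without replicate 2 of the line (−0.26, adjusted p = 0.0646) and in replicates 3 and 4 alone (−0.14, adjusted p = 0.43). That in supernatant was lost without replicate 1 or 2 of the line or any single array of treated macrophages (adjusted p from 0.053 to 0.112) and when arrays were centred on their median (−0.20, adjusted p = 0.106).

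**Figure D2:**
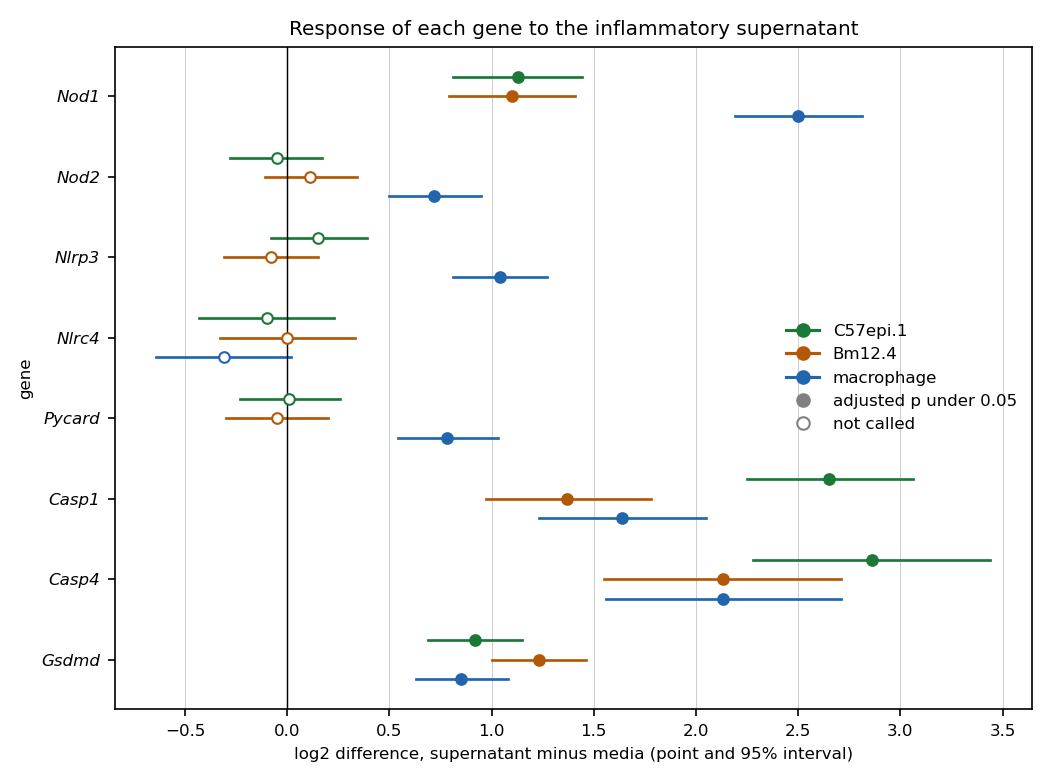
Difference of each gene between supernatant and media in each kind of cell (horizontal axis, log2; point and 95% interval from limma over 24 arrays, filled where the adjusted p was under 0.05). Nod1, Casp1, Casp4 and Gsdmd lie right of 0 in all 3 kinds of cell, whereas Nod2, Nlrp3 and Pycard do so in macrophages, at 0.72, 1.04 and 0.78.

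Counted over the 8 genes, the responses of C57epi.1 and macrophages differed in 5, and those of Bm12.4 and macrophages in 4. The share of all genes was 9.93% and 5.64%. Nod1, Nod2, Nlrp3 and Pycard rose further in macrophages in each of these comparisons, which share the macrophage arrays, and Casp1 rose further in C57epi.1. The lines differed from each other in the response of 1 gene, Casp1, against 4.03% of all genes. Intervals for the other 7 genes between the lines ran from −0.63 to 1.55, so the arrays allow differences of response of up to that size.

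In levels, both lines lay below macrophages for most of the 8, and the arrays of macrophages serve both comparisons. Called genes numbered 7 for C57epi.1 and 6 for Bm12.4 in media, against 44.5% and 42.8% of all genes, and 6 and 5 of these were lower in the line, against 21.8% and 20.8%. In supernatant 6 were called for each line, against 47% and 43.8% of all genes, and 6 and 5 were lower, against 24% and 21.9%. With the replicate number as a block the 7 became 6, or 5 in a fit on those groups alone. Nlrp3, Nlrc4, Pycard and Casp1 were called lower in both lines under both conditions. Nod1 was the only called gene in the other direction. Between the lines 2 genes were called, Nod1 and Casp1, each lower in C57epi.1 in media and in supernatant, against 24.4% and 29.9% of all genes. Treated C57epi.1 lay 0.22 above treated Bm12.4 in Nlrp3, with arrays that did not overlap but an adjusted p of 0.156. That difference was called only with array weights (0.25, adjusted p = 0.0404), at levels that may be background. Gsdmd there was called only with a term for the 2 pairs of replicates (−0.33, adjusted p = 0.0303).

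**Figure D3:**
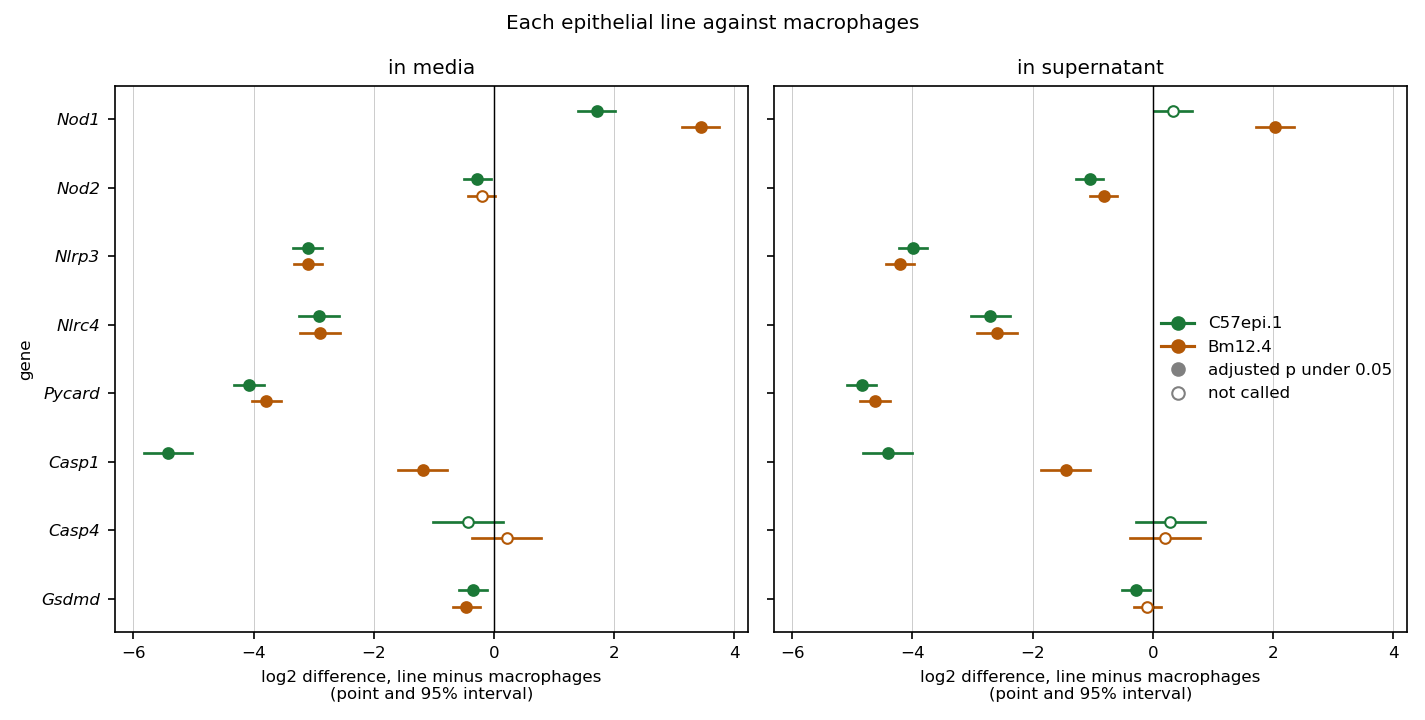
Difference of each epithelial line from macrophages (horizontal axis, log2; point and 95% interval, filled where the adjusted p was under 0.05), in media on the left and in supernatant on the right. Nlrp3, Nlrc4 and Pycard lie left of −2 in both lines, Nod1 lies at 1.71 and 3.44 in media, and Casp1 parts the lines at −5.42 and −1.18.

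The other genes of these pathways were taken from 8 lists of 67 genes, of which 59 were measured. The rest of the listed genes were not analysed here. Higher and lower calls numbered 8 and 7 in C57epi.1, beside 8.85% and 10.4% of all genes. In Bm12.4 they numbered 14 and 0 (5 of the 59 had an unadjusted p under 0.05 in the lower direction), beside 4.54% and 2.7%, and in macrophages 16 and 3, beside 6.13% and 6.31%. The same shares of all genes stand beside the counts of each list that follow. Their median differences were −0.01, 0.04 and 0.07, close to those of all genes. Thus the larger part of the 59 was not called in any single kind of cell, at 44, 45 and 40 genes.

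Among 14 genes of Nod signalling, 2 rose and 1 fell in C57epi.1, 4 rose in Bm12.4, and 3 rose and 1 fell in macrophages. Tnfaip3, which encodes the ubiquitin-editing brake A20, rose by 1.90, 2.20 and 1.10 (adjusted p = 7.76e-06, 1.42e-06 and 0.00382) in the order C57epi.1, Bm12.4, macrophages. The ubiquitin ligase gene Birc3 rose by 1.15 in C57epi.1 (adjusted p = 2.85e-06), by 1.00 in Bm12.4 (adjusted p = 3.47e-05) and by 0.60 in macrophages (adjusted p = 0.00529). In replicates 3 and 4 alone, neither rise was called in macrophages (adjusted p = 0.125 and 0.121). Of 6 peptide transporters, which bring Nod ligands into the cytosol, 2 rose in C57epi.1 and 0 were called in Bm12.4, where 1 had an unadjusted p under 0.05 upward and 1 downward. In macrophages 1 rose and 1 fell. Slc15a3 rose by 1.95 in C57epi.1 (adjusted p = 2.19e-09), from 4.67 to 6.62. It also rose in macrophages, from 11.72 to 12.28, a call lost without untreated replicate 1 (0.50, adjusted p = 0.0589). Its response was larger in C57epi.1 than in Bm12.4 (1.85, adjusted p = 1.64e-05). In macrophages Slc46a3 fell by 2.09 (adjusted p = 6.29e-06).

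Of 10 other inflammasome sensors, 0 were called by limma in C57epi.1, with 1 at an unadjusted p under 0.05, and 4 rose in Bm12.4. Macrophages had 1 rise and 1 fall. Naip2, Naip5 and Naip6, which encode the ligand-binding partners of Nlrc4, rose in Bm12.4 by 1.11, 1.35 and 1.31 (adjusted p = 0.00176, 0.00872 and 0.000265). These genes are related members of 1 family, so their probe sets may share signal. The call of Naip5 was lost in the fit on only the groups compared (adjusted p = 0.0855). The response of Naip6 differed between the lines (−1.34, adjusted p = 0.0147, or 0.0585 on only the groups compared), while those of Naip2 (−1.05) and Naip5 (−1.14) had adjusted p = 0.0605 and 0.192. With the replicate number as a block the Naip2 difference was called (adjusted p = 0.0245), as it was in 12 of 28 settings, among them those without untreated C57epi.1 replicate 1 or 2 or untreated Bm12.4 replicate 3 or 4 (adjusted p from 0.00938 to 0.0383). Naip5 was called in 4, among them without untreated C57epi.1 replicate 2 (−1.49, adjusted p = 0.0261). In C57epi.1 the changes of Naip2 and Naip5 overall were 0.06 and 0.22 and not called, but the pairs of replicates gave opposite calls for Naip5. In replicates 3 and 4 alone Naip2, Naip5 and Naip6 were −0.38, −0.47 and −0.53 (adjusted p = 0.014, 0.0497 and 0.00982), and in replicates 1 and 2 alone Naip5 was 0.90 (adjusted p = 0.0267). Aim2, a sensor of DNA in the cytosol, was singled out after its values were seen. It stood at 8.16 ± 0.16 (SD, n = 4) in untreated C57epi.1, 3.67 ± 0.17 in untreated Bm12.4 and 8.20 ± 0.10 in untreated macrophages. The fourth rise in Bm12.4 was that of Aim2 (0.37, adjusted p = 0.0348). Its call was lost in 8 of 20 settings, among them without untreated replicate 3 (adjusted p = 0.139) or treated replicate 3 or 4 (adjusted p = 0.14 and 0.111), and in replicates 1 and 2 it was 0.10 (adjusted p = 0.719). The order of the lines in media is the reverse of that in Casp1, and the lines differed by 4.49 (adjusted p = 2.95e-19).

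Of 4 other NLR genes, Ciita, the master regulator of MHC class II, rose by 2.39 in C57epi.1 (adjusted p = 7.77e-12), by 2.22 in Bm12.4 (adjusted p = 3.3e-11) and by 0.57 in macrophages (adjusted p = 0.00526), where replicates 1 and 2 alone gave 0.53 with no call (adjusted p = 0.0919). Nlrc5, its class I counterpart, rose by 1.03 in Bm12.4 (adjusted p = 5.13e-06) and by 1.21 in macrophages (adjusted p = 2.85e-07), and the mean of all its probe sets gave 3.29 and 2.66. In C57epi.1 Nlrc5 was −0.42 (adjusted p = 0.0223), and that mean gave 0.04 (adjusted p = 0.843) with no call. The call was also lost without C57epi.1 treated replicate 2 or 4 or untreated replicate 2 (adjusted p = 0.0502, 0.0587 and 0.0933). Of 8 triggers and partners of Nlrp3, 2 fell in C57epi.1, 0 were called in Bm12.4 (1 upward and 1 downward at an unadjusted p under 0.05) and 2 rose in macrophages.

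Of 6 further caspases and pore proteins, 1 rose in C57epi.1, while Bm12.4 had 2 rises and macrophages had 3. Casp12, of the inflammatory caspase family, rose by 2.36, 1.72 and 1.78 (adjusted p = 3.97e-07, 5.45e-05 and 1.95e-05), and, unlike Casp1, it was 12.8-fold higher in untreated C57epi.1 and 26-fold higher in untreated Bm12.4 than in untreated macrophages. Of 8 inhibitors, 2 rose and 2 fell in C57epi.1, 2 rose in Bm12.4 and 4 rose in macrophages. Il18bp, which encodes a soluble trap for interleukin-18, rose by 2.85, 2.86 and 2.99 (adjusted p = 3.76e-13, 4.4e-13 and 2.22e-13). Trim30a, whose protein dampens Nlrp3, rose by 7.35 and 6.43 in the lines (adjusted p = 4.35e-12 and 5.47e-11) and by 2.31 in macrophages (adjusted p = 0.00025). Its untreated Bm12.4 arrays split, at 4.24, 4.17, 6.70 and 6.76. In macrophages the interleukin-1 antagonist Il1rn rose by 2.00 (adjusted p = 4.2e-09) and the decoy receptor Il1r2 by 1.25 (adjusted p = 4.15e-06).

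The cytokine genes Il1a, Il1b and Il18 were not called by limma in any kind of cell, and Il1b in macrophages had the only unadjusted p under 0.05 among them. Il1b arrays in macrophages read 4.73, 4.17, 4.11 and 4.53 in media and 5.50, 4.97, 4.87 and 4.23 in supernatant, which overlap (0.51, adjusted p = 0.0925). Without replicate 4 of treated macrophages that difference was called (0.73, adjusted p = 0.00436), as it was without replicate 1 of untreated macrophages (0.62, adjusted p = 0.0479). Replicates 1 and 2 alone (0.79, adjusted p = 0.0174), array weights (adjusted p = 0.0197) and a term for the 2 pairs of replicates (adjusted p = 0.0462) gave a call too. Il18 in macrophages ran from −0.24 to 0.53 over the alternatives and was called in replicates 3 and 4 alone (0.53, adjusted p = 0.0153). Il1a lay at 8.42 and 8.64 in untreated and treated macrophages and had means between 3.16 and 3.28 in the line groups.

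**Figure D4:**
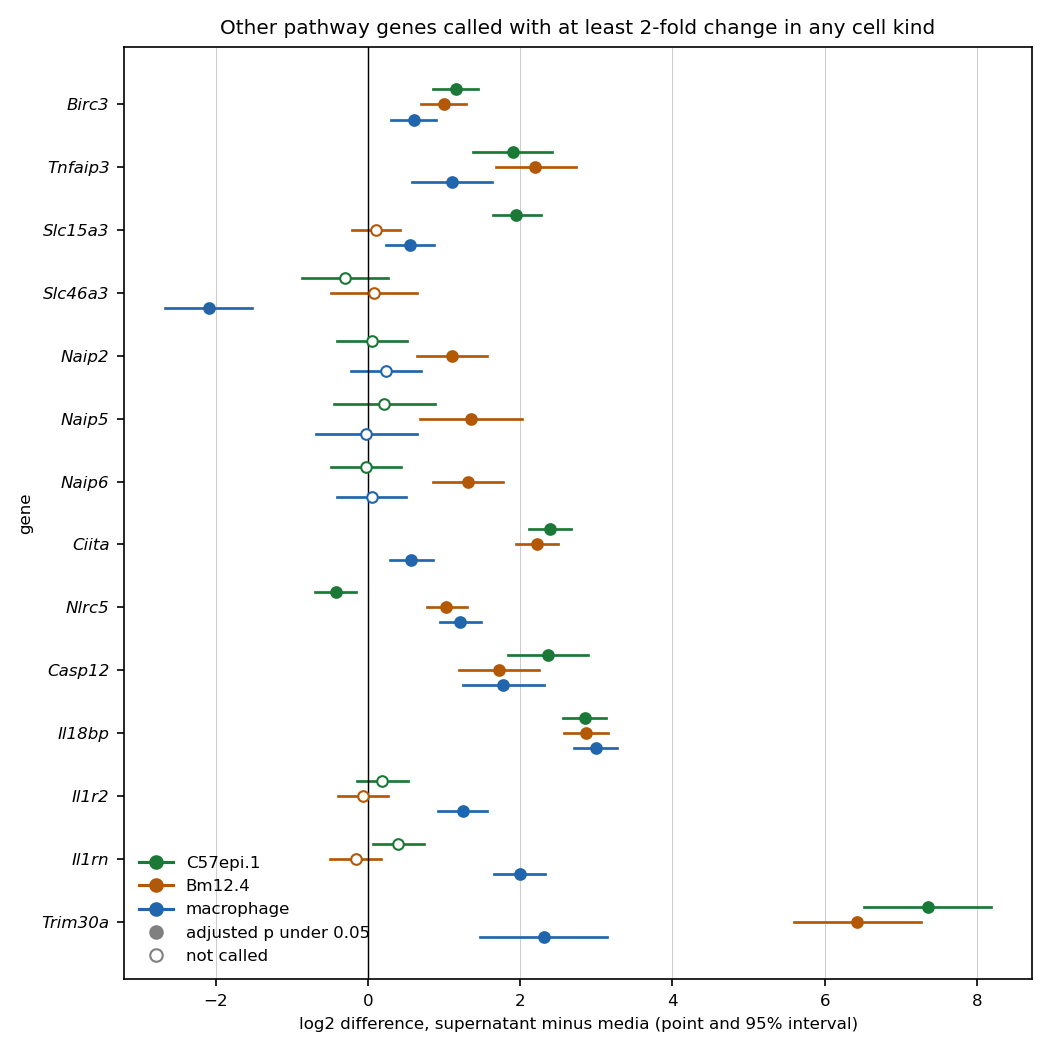
Difference between supernatant and media (horizontal axis, log2; point and 95% interval, filled where the adjusted p was under 0.05) for the 14 other pathway genes that were called with at least a 2-fold change in any kind of cell. Il18bp rises in all 3 kinds, by 2.85, 2.86 and 2.99, and Naip2, Naip5 and Naip6 are filled in Bm12.4 only.

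Across the 24 arrays the 8 genes fell into patterns that follow the kinds of cell and the treatment. Nlrp3 and Pycard had a Pearson correlation of 0.988, Nlrc4 and Pycard 0.967, and Nlrp3 and Nlrc4 0.955. Casp4 and Gsdmd had 0.899, and Nod1 and Nlrc4 −0.635. These values are over the same 24 arrays, which share the split of lines and macrophages, and are given as a description. The genes most like each member, by that measure, were Sik3, Foxf1 and Parp3 for Nod1 (0.958, 0.929 and 0.917) and Slco3a1, Usb1 and Cd226 for Nod2 (0.936, 0.922 and 0.917). They were Slc7a8, Kdr and Adap2 for Nlrp3 (0.996 each), Rora, St8sia4 and Fmnl1 for Nlrc4 (0.99, 0.989 and 0.989) and Coro2a, Themis2 and Sdc3 for Pycard (0.997, 0.997 and 0.996). For Casp1 they were Cers6, Tifa and Tmbim6 (0.97, 0.962 and 0.955), for Casp4 the interferon-inducible genes Xaf1, Ube2l6 and Ifi203 (0.984, 0.983 and 0.978), and for Gsdmd Batf2, Rnf31 and Phf11a (0.958, 0.957 and 0.955).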

How the data were processed

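Per the submitters' processing notes, the authors used GCOS, Partek 6.2 and RMA, whose order is not stated there. Deposited by the authors are log2 levels, 1 per probe set, for 28853 probe sets on each of 24 arrays, from 100 ng of total RNA. Of the probe sets, 21789 had 1 gene symbol in the platform annotation, 1621 several and 5443 none, and only the first were used. Where a gene had several (999 genes), the probe set with the highest mean was taken. The members and lists were chosen with earlier results of these data known.

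Differences came from limma 3.58.1 (R 4.3.3, statmod 1.5.0), with a mean per group over all 24 arrays, 18 residual and 3.62 prior degrees of freedom, two-sided p-values and Benjamini-Hochberg adjustment over 19938 genes in each of 12 comparisons. The scripts were tested on simulated data. The number of arrays, 4 per group, limits the precision.

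Named genes were the 8 members, per pathway list up to 3 rises and 3 falls of at least 2-fold among called treatment effects, 3 most alike genes per member, and the markers Ptprc, Csf1r, Adgre1, Epcam, Krt8 and Cd3e (Cd3e, a T cell marker, lay between 4.62 and 5.00 in all groups). T cell, neutrophil and dendritic cell markers averaged 3.77 to 4.48, 3.58 to 5.56 and 4.19 to 6.53 per array, the higher values in macrophages. These means cover single genes, named after their values were seen, that were high in untreated and treated macrophages. The dendritic cell markers Itgax (12.16 and 11.99) and Clec9a (7.92 and 7.14) were among them, while 3 of 10 on that list lay under 5. So was the neutrophil marker Mmp8 (12.05 and 11.45), while 8 and 7 of 10 on its list lay under 5. Arrays were not paired in the main fits, and the replicate number as a block was run as an alternative for every comparison. Deviations of same-numbered arrays from their group means all correlated above 0.1 only for untreated with treated Bm12.4 (0.68, 0.23, 0.67 and 0.42) and for the untreated lines (0.63, 0.51, 0.62 and 0.62). The best match had the same number for 6 of 8 and for 4 of 8 of these arrays. It did so for 6 of 8 between the treated lines (correlations 0.27, 0.08, 0.14 and 0.21). Between untreated arrays of either line and treated arrays of the other it did so for 5 of 8. For untreated with treated C57epi.1 it was 4 of 8, and with macrophages 0 to 4 of 8. The labels name no pairs, so pairing was left undecided. Promoter windows came from a RefSeq table of GRCm38.p6. The build behind the array annotation was not given in the sources used here.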

Additional observations from a re-analysis of the deposited data

Results flagged for a closer look

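The response to the supernatant differed between kinds of cell in 10 of 24 tests on the 8 genes, by the limma test of the difference. Of all genes, 9.93% differed between C57epi.1 and macrophages, 5.64% between Bm12.4 and macrophages and 4.03% between the lines. These comparisons share arrays, so the 24 tests are not separate from each other. Between C57epi.1 and macrophages the differences were −1.37 for Nod1, −0.78 for Nod2, −0.88 for Nlrp3, −0.77 for Pycard and 1.01 for Casp1. Between Bm12.4 and macrophages they were −1.40 for Nod1, −0.61 for Nod2, −1.12 for Nlrp3 and −0.83 for Pycard. Between C57epi.1 and Bm12.4 it was 1.28 for Casp1.

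In 3 of 48 groups of 4 arrays, an array stood apart from the other 3 by a gap above Dixon's 95% critical value, where chance gives about 1 in 20. All were in Casp4: replicate 1 of treated Bm12.4 was lowest at 9.46, replicate 1 of untreated macrophages was highest at 7.66, and replicate 4 of treated macrophages was lowest at 9.38.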

How the results depend on the processing

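Over the alternatives run (other normalization, filter, spread model, probe set choice, replicate sets, replicate block and each array left out), the 477 recomputed treatment effects of the 8 genes stayed on the same side of the threshold, and the called ones kept their direction. Some that were not called changed sign, such as Pycard in Bm12.4 (−0.21 in replicates 1 and 2, 0.11 in replicates 3 and 4) and Nlrc4 there (0.25 and −0.24). Of 2100 values recomputed for them over all comparisons 56 changed, and 47 of those concerned Nod2, Casp4 or Gsdmd.

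The count of responses that differed between the lines, 1 of 8 (Casp1), became 0 in the fit on only the groups compared (Casp1 adjusted p = 0.0539, and 2 genes at an unadjusted p under 0.05) and 2 in replicates 3 and 4 alone, where Casp4 was added (0.78, adjusted p = 0.00803). Other pathway genes called in C57epi.1 numbered 15, and 24 in replicates 3 and 4 alone. Values that turned direction and were called before or after the turn were Nlrc5 in C57epi.1 (0.04 with the mean of all probe sets), Casp4 in untreated Bm12.4 against macrophages (−0.53 in replicates 1 and 2), and Naip2 and Naip5 in C57epi.1 (−0.38 and −0.47 in replicates 3 and 4). The cause was not tested. Other signs turned between values that were not called, such as Casp4 in untreated C57epi.1 against macrophages (−0.43, and 0.12 in replicates 3 and 4).

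With the replicate number as a block, the members called were 4, 4 and 7 for the treatment effects, as without it. The block in a fit on only the groups compared was chosen after seeing the data. It gave 8 in place of 6 for C57epi.1 against macrophages in supernatant, 3 in place of 2 for the untreated lines, and 3 in place of 4 for the responses of Bm12.4 and macrophages. Besides the calls named for C57epi.1 against macrophages in media, it changed no other count of the 8.

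Counts over all genes moved by more than 1.5 times in 19 cases. They were 3832 in C57epi.1 (2245 in replicates 1 and 2, 5830 in replicates 3 and 4), 1445 in Bm12.4 (786 to 3189) and 2482 in macrophages (up to 3752 with array weights). For the untreated lines the count was 4873, or 3007 on those groups alone. Responses differed in 1980 genes between C57epi.1 and macrophages (up to 4086), in 1124 between Bm12.4 and macrophages (up to 1847), and in 803 between the lines (426 to 2426). Among these, leaving out untreated C57epi.1 replicate 2 or 4 gave 1263 or 534. With levels under 6 filtered out, Nod2 could not be tested. Low levels in the lines, such as those near 3 to 4 and those of Nod2 and Pycard, limit what can be said there.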
